A study of Mus musculus and Homo sapiens with 27 samples.

Results

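Integrins are cell surface receptors that bind the extracellular matrix, and each is a pair of an alpha and a beta chain. Both chains are membrane proteins with a signal peptide; they are made by ribosomes at the endoplasmic reticulum (ER), pair there and then travel through the Golgi apparatus to the cell surface. Itgb1 is the shared partner of many alpha chains. With Itga5 it forms the classical fibronectin receptor and with Itga3, Itga6 or Itga7 receptors for laminins, whereas Itgav, which also pairs with Itgb1, forms receptors for vitronectin with Itgb3 or Itgb5. The 8 mouse genes Itga3, Itga5, Itga6, Itga7, Itgav, Itgb1, Itgb3 and Itgb5 were taken by name and found by Ensembl ID among the 56691 features of the MC38 12G count table. For human HEK293T cells ITGB1, ENSG00000150093, was taken by ID among 57992 features; other human integrin genes were not analysed here, because the name tables used here hold mouse IDs.

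The study used proximity labelling driven by bioluminescence, in which an enzyme the labels call LAP, located at the ERM (taken here to mean ER membrane), was stably expressed in MC38, a mouse colon carcinoma line, and in HEK293T, a human embryonic kidney line. Labelling took 15 to 60 min with 50 µM furimazine, on which luciferases act, and 10 mM of a compound given only as PA; biotin was then attached to the RNA by azide chemistry for capture with streptavidin. Each set holds 3 groups of 3 libraries: Label_Enrich, captured RNA of labelled cells; Label_Input, the uncaptured RNA of labelled cells; and NonLabel_Enrich, captured RNA with a title that says no labelling (how these cells were treated is not spelled out). All groups carry the enzyme as far as the labels say, no uncaptured RNA of unlabelled cells was among the libraries, and nothing states that replicates came from separate cultures, so p-values cover only the spread between these samples, which may be technical.

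Library totals ran from 13127181 to 18614808 counts in MC38 12G and from 442059 to 1135243 in HEK293T 3G. In MC38 12G the most abundant feature, ENSMUSG00000119584, left 2702728 to 7727524 counts per library for all others. This depth differed by group without overlap. It was 2702728 to 3205266 in Label_Input, 4753728 to 5209883 in NonLabel_Enrich and 5795001 to 7727524 in Label_Enrich. The MC38 3G table held no feature with more counts than the same-titled 12G library (0 in each of 9 pairs, against 2558 to 7472 between other replicates of a group), so it was read as shallower counts of the same libraries. The label of a carcinoma line was checked against epithelial markers: Epcam had 0 counts in all MC38 12G libraries, Krt8, Krt18 and Krt19 had group means below 0.1 CPM and Cdh1 stood at 0.997 ± 0.159 CPM in Label_Input (SD, n = 3). In the same group the mesenchymal gene Vim stood at 660 ± 17.6 CPM. Of the blood-lineage markers, Cd3e and Itgam were at 0 and Ptprc had at most 1 count. Cd68 was at 2.37 ± 0.331 CPM, and the endothelial genes Pecam1 and Cdh5 had at most 5 and 1 counts in a library. Itga2b, checked with them as a platelet marker, was at 1.08 ± 0.190 CPM in Label_Input.

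A signal peptide is a run of hydrophobic residues near the start of a protein, and codons with T as their second base all encode hydrophobic residues. The first 30 codons of 4 chains are shown because a signal peptide lies near the start. Its ends were not mapped, so it can run past the stretch shown. They come from GENCODE M21 transcripts (mouse build GRCm38, sense strand, from the start codon), and capitals mark each codon with T as its second base.
Itgb5: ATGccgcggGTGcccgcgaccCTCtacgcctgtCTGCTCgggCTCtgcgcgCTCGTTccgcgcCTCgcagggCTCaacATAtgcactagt
Itgav: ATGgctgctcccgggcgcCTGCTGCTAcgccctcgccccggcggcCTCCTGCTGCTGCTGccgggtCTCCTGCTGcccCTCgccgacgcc
Itga3: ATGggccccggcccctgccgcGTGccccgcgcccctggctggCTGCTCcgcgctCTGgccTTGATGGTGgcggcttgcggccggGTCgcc
Itga5: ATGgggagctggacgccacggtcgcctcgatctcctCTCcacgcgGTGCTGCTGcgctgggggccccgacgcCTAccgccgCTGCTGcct

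Within these 30 codons, start codon left out, the densest stretch of 10 codons held 8 such codons in Itgav and 6 in Itgb1, Itga3 and Itga7. It held 5 in Itgb3, Itgb5 and Itga6 and 4 in Itga5. The cut at 30 codons was the same for every gene, so a low count does not show a weakly hydrophobic signal peptide. Among 10527 tested protein-coding genes with a readable start, 3.35% reached 8, 17.9% reached 6, 38.5% reached 5 and 65.4% reached 4. The measure does not single out ER-made proteins, since 18 of 30 cytosolic integrin adaptor genes reached 4 or more, and Tln1 among them reached 5. It describes the printed letters and was not related to the values below.

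Of the 8 genes, 6 passed the filter on low counts, which edgeR applies by group, and each of these had at least 52 counts in every MC38 12G library. Itga7 and Itgb3 did not pass. Itga7, a laminin-binding chain known from muscle, had 1 to 10 counts per library. Itgb3, the platelet and vitronectin receptor chain, had 3 to 14 counts. In CPM (counts divided by a library size that trimmed mean of M values factors adjust, so that values are relative to the bulk of tested genes), Itga7 stood at 0.275 ± 0.130 CPM in Label_Enrich, 0.207 ± 0.134 CPM in Label_Input and 0.222 ± 0.0896 CPM in NonLabel_Enrich (SD, n = 3). Itgb3 stood at 0.359 ± 0.103, 0.615 ± 0.279 and 0.408 ± 0.208 CPM in the same order. Their groups overlapped in CPM, and 3 counts in a library correspond to 0.101 to 0.429 CPM. The fold changes of these genes were not tested at this depth.

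**Figure D1:**
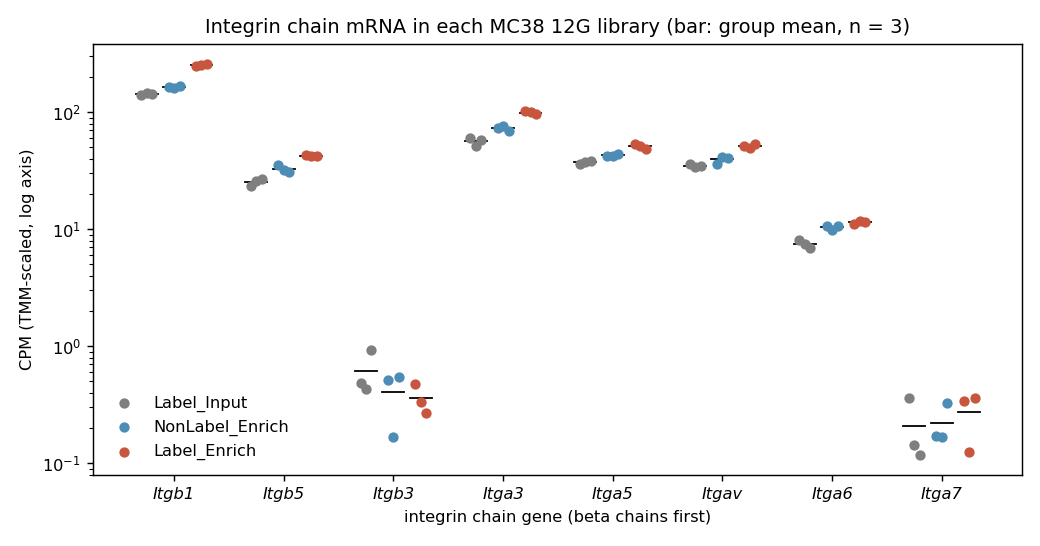
Level of each integrin chain mRNA in the 9 MC38 12G libraries, in CPM on a log axis, with 1 point per library and a bar at the mean of each group. Itgb1 is the highest and reaches 260 CPM in Label_Enrich; Itgb3 and Itga7 stay below 1 CPM in every library, and for the other 6 chains every Label_Enrich point lies above every Label_Input point.

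Label_Enrich was first compared with Label_Input, which sets captured against uncaptured RNA of labelled cells. All 6 integrin chains that passed the filter were higher in Label_Enrich, from 1.37-fold for Itga5 to 1.78-fold for Itgb1. The edgeR quasi-likelihood test called 14.2% of the 11676 tested genes higher at an adjusted p under 0.05. In either direction it called 28.7%. In all 6 chains every Label_Enrich library was above every Label_Input library, which held for 19.2% of tested genes. The median log2 fold change of the 6 was 0.68, beside -0.02 over all tested genes. Both groups hold RNA of labelled cells, so these values compare captured with uncaptured RNA. They do not measure expression per cell.

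Itgb1 had 248, 254 and 260 CPM in the 3 Label_Enrich libraries and 140, 145 and 143 CPM in the 3 Label_Input libraries. Every captured library of labelled cells stood above every input library, and the log2 fold change was 0.83 ± 0.05 (SE, edgeR adjusted p = 6.26e-25). Itgb5, the other beta chain of the 6, had 43.1, 42.1 and 42.4 CPM against 23.2, 25.7 and 26.8 CPM. The groups were again apart, at 0.75 ± 0.07 on the log2 scale (edgeR adjusted p = 1.16e-13).

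Among the alpha chains, the laminin receptor chain Itga3 had 101, 100.0 and 96.4 CPM in Label_Enrich and 59.8, 51.9 and 58.4 CPM in Label_Input. Its log2 fold change was 0.81 ± 0.06 (edgeR adjusted p = 1.37e-19), close to that of Itgb1. Itga6, the other laminin receptor chain, had the lowest counts of the 6, with 11.2, 11.7 and 11.4 CPM against 8.05, 7.43 and 6.90 CPM. It rose by 0.61 ± 0.12 on the log2 scale (edgeR adjusted p = 3.64e-05), and its SE was the widest. The vitronectin receptor chain Itgav had 51.1, 49.7 and 53.7 CPM against 36.3, 34.2 and 34.4 CPM, and rose by 0.56 ± 0.07 on the log2 scale (edgeR adjusted p = 3.28e-10). The fibronectin receptor chain Itga5 had 53.6, 51.4 and 48.6 CPM against 36.1, 37.5 and 38.4 CPM, and its change was the smallest of the 6 at 0.46 ± 0.07 (edgeR adjusted p = 2.95e-08).

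The comparison of Label_Enrich with NonLabel_Enrich sets captured RNA of labelled cells against captured RNA titled NonLabel. Of the 6 tested chains, 5 were higher and 0 lower; 10.4% of all tested genes were called higher and 20.1% in either direction. The median log2 fold change of the 6 was 0.38, beside 0.00 over all tested genes. Itgb1 again had the largest value: its NonLabel_Enrich libraries stood at 165, 161 and 166 CPM, all below the Label_Enrich libraries, and it rose by 0.63 ± 0.04 on the log2 scale (edgeR adjusted p = 1.49e-19). Itga3 stood at 73.1, 75.8 and 69.1 CPM without labelling and rose by 0.45 ± 0.05 (edgeR adjusted p = 5.70e-11). Itgav, at 36.1, 41.6 and 40.9 CPM without labelling, and Itgb5, at 35.1, 32.4 and 30.7 CPM, both rose by 0.38 ± 0.06 on the log2 scale (edgeR adjusted p = 6.99e-07 and 1.39e-06).

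Itga5 stood at 42.0, 42.2 and 44.0 CPM in NonLabel_Enrich and rose by 0.26 ± 0.06 (edgeR adjusted p = 0.000297). Itga6 stood at 10.6, 9.79 and 10.6 CPM, just below its Label_Enrich values without overlap. Its log2 fold change of 0.14 ± 0.09 did not pass the test (edgeR adjusted p = 0.308). In all 6 tested chains the Label_Enrich libraries lay above the NonLabel_Enrich libraries, as in 17.6% of tested genes.

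Captured RNA titled NonLabel was also compared with Label_Input. These groups differ both in capture and in labelling, and no uncaptured RNA of unlabelled cells was available. Effects of capture and of labelling thus cannot be told apart in this comparison. All 6 tested chains were higher in NonLabel_Enrich than in Label_Input, where 14.8% of tested genes were called higher and 29.5% in either direction, with a median log2 fold change of 0.28 beside -0.02 over all tested genes. Itga6 had the largest value, 0.47 ± 0.13 (SE, edgeR adjusted p = 0.00256), followed by Itgb5 at 0.37 ± 0.08 and Itga3 at 0.35 ± 0.06. Itgb1 rose by 0.20 ± 0.05 (edgeR adjusted p = 0.000460). Itga5 rose by 0.20 ± 0.07 (edgeR adjusted p = 0.0211), a call lost in 3 of 17 alternatives: without Label_Input replicate 1, without NonLabel_Enrich replicate 3 and with the trend on length removed (adjusted p from 0.00146 to 0.0984 over the 17). Itgav, at 0.18 ± 0.07 (edgeR adjusted p = 0.0490), was lost in 12 of 17, with values from 0.08 to 0.25 and adjusted p from 0.00487 to 0.455, and its groups overlapped. In the other 5 the groups were apart, as in 19.5% of tested genes.

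The 3 comparisons share libraries, so their values are set side by side and not correlated. For Itgb1, the log2 difference from NonLabel_Enrich (0.63) was larger than that between NonLabel_Enrich and Label_Input (0.20). For Itga6 the order was the other way, 0.14 and 0.47, and for Itgb5 both were alike at 0.38 and 0.37. Ratios within a library, given next, set the chains side by side without scaling.

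**Figure D2:**
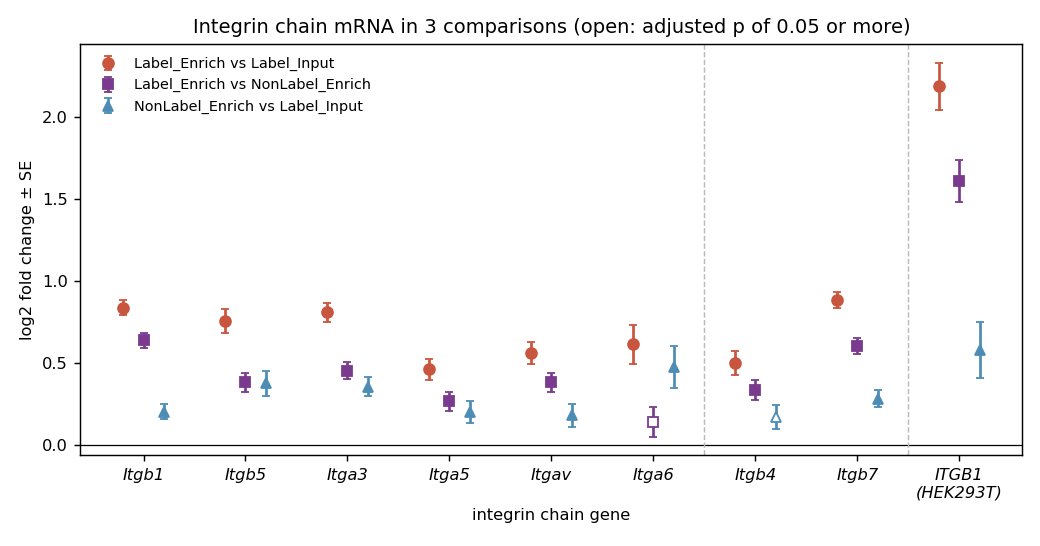
Log2 fold change ± SE of integrin chain mRNAs in the 3 comparisons, from the edgeR fits, with filled symbols for an adjusted p under 0.05. The 6 tested chains of MC38 12G stand left of the first dashed line, Itgb4 and Itgb7 between the lines, and human ITGB1 in HEK293T 3G, fitted on its own table, at the right with 2.18 against Label_Input.

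A ratio of 2 genes in 1 library needs no scaling between libraries, so each chain was set against Itgb1 as the log2 ratio of counts, with 0.5 added. The Itga5 ratio was -2.31 ± 0.11 in Label_Enrich, -1.93 ± 0.03 in Label_Input and -1.94 ± 0.03 in NonLabel_Enrich (SD, n = 3). The Label_Enrich libraries were thus below both other groups without overlap, by 0.38 and 0.37. The Itgav ratio was -2.30 ± 0.04, -2.03 ± 0.07 and -2.05 ± 0.13 in the same order, again with Label_Enrich below both. The Itga6 ratio was -4.48 ± 0.03, -4.25 ± 0.13 and -3.98 ± 0.04, so that NonLabel_Enrich was highest.

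The Itga3 ratio was -1.36 ± 0.07 in Label_Enrich and -1.33 ± 0.13 in Label_Input, which overlapped (exact two-sided permutation p = 0.800, adjusted p = 0.840). It was -1.17 ± 0.09 in NonLabel_Enrich, above Label_Enrich without overlap. The Itgb5 ratio was -2.58 ± 0.05, -2.50 ± 0.09 and -2.32 ± 0.10, with Label_Enrich below NonLabel_Enrich and overlapping Label_Input. In Label_Enrich against NonLabel_Enrich the difference in ratio ran from -0.18 for Itga3 to -0.49 for Itga6. A lower ratio was set by the choice of Itgb1 as denominator, since by log2 fold change Itgb1 ranked 182 from the top of 11676 tested genes against NonLabel_Enrich and 212 against Label_Input; the sizes are given as a description. With 3 libraries against 3 the exact two-sided permutation test cannot give less than p = 0.100, and the smallest p adjusted over the 21 ratios computed was 0.191. The Itgb3 and Itga7 ratios rest on the few counts given above; that of Itgb3 was -9.42 ± 0.41 in Label_Enrich and -7.79 ± 0.54 in Label_Input, without overlap, and its Label_Enrich libraries overlapped NonLabel_Enrich.

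**Figure D3:**
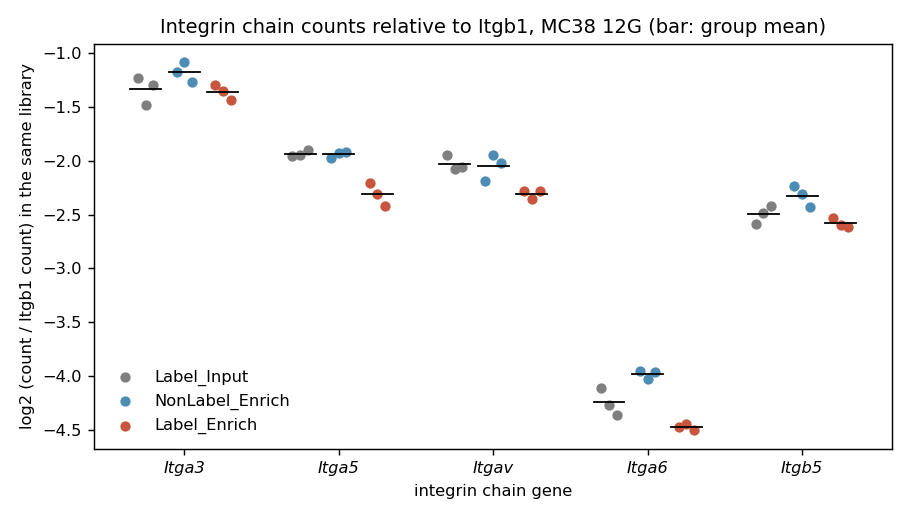
Log2 ratio of each chain's count to the Itgb1 count of the same MC38 12G library, with 1 point per library and a bar at the group mean. The Label_Enrich points lie below the NonLabel_Enrich points for all 5 chains, and below the Label_Input points for Itga5, Itgav and Itga6; Itgb1, the denominator, had the largest fold change of the tested members in both comparisons.

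Levels of different chains were compared per kilobase of exon (CPM per kb). In Label_Input the order was Itgb1 at 35.0 ± 0.573 CPM per kb, Itga3 at 9.93 ± 0.734, Itga5 at 7.56 ± 0.236, Itgb5 at 7.11 ± 0.519, Itgav at 3.25 ± 0.109 and Itga6 at 0.827 ± 0.0639 (SD, n = 3). Itga5 and Itgb5 were neighbours whose libraries overlapped in Label_Input, and the other neighbours were apart. In Label_Enrich Itgb5 stood above Itga5, at 12.0 ± 0.138 against 10.4 ± 0.514 CPM per kb, while Itgb1 reached 62.3 ± 1.47. With the longest annotated transcript as the length, Itgav stood at 4.96 and Itga6 at 1.73 CPM per kb in Label_Input, and the order was the same. In 634 of its 10744 exonic bases Itgav overlaps another annotated gene, Gm13684, and Itga7 overlaps Mettl7b in 9; the other 6 chains share none.

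The other 18 integrin chain genes of the mouse table were counted as well. Of these, 12 did not pass the filter, with at most 9 counts in any library, and 4 had 0 counts in all. The remaining 6 were Itga10, Itga2b, Itgb2, Itgb4, Itgb7 and Itgb8. Itgb7, known as a chain of lymphocyte homing receptors, was the second most abundant integrin chain mRNA, at 55.9 ± 2.36 CPM per kb in Label_Enrich, 30.3 ± 1.38 in Label_Input and 36.9 ± 0.876 in NonLabel_Enrich. Its log2 fold change was 0.88 ± 0.05 against Label_Input (edgeR adjusted p = 8.72e-24) and 0.60 ± 0.05 against NonLabel_Enrich (edgeR adjusted p = 4.47e-17), both near those of Itgb1. Its known partner chains were barely counted: Itga4 had 0 to 1 and Itgae 0 to 9 counts per library.

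Itgb4, the partner of Itga6 in hemidesmosomes, rose by 0.50 ± 0.07 against Label_Input (edgeR adjusted p = 2.97e-08) and by 0.33 ± 0.06 against NonLabel_Enrich (edgeR adjusted p = 2.00e-05). Against input, NonLabel_Enrich had 0.17 ± 0.07 (edgeR adjusted p = 0.0809). Itgb4 overlaps the annotated gene B230344G16Rik in 537 exonic bases. The other 4 tested chains, all with means under 2 CPM, did not pass in any comparison: against Label_Input, Itga10 had -0.28 ± 0.32, Itga2b 0.17 ± 0.36, Itgb2 -0.01 ± 0.46 and Itgb8 0.13 ± 0.53 on the log2 scale.

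Genes that work with integrins were described in 3 lists, grouped by role: ligands, most of them secreted matrix proteins but with the cell surface proteins Vcam1 and Icam1 among them; partners in the membrane; and cytosolic adaptors at integrin tails. Ligands and membrane partners are, like integrins, made at the ER, and the adaptors on free ribosomes. Against Label_Input, 17 of 24 tested ligands were higher and 1 lower (median log2 fold change 0.95), 12 of 18 membrane partners were higher and 1 lower (0.26), and 7 of 30 adaptors were higher and 5 lower (-0.01). The median over all tested genes was -0.02, with 14.2% called higher and 14.6% lower. Against NonLabel_Enrich, 17 ligands were higher and 2 lower (median 0.51), 14 partners were higher and 0 lower (0.28), and 1 adaptor was higher and 10 lower (-0.13), while 10.4% of all tested genes were called higher and 9.63% lower. The count of 11 adaptors called there was 7 without Label_Enrich replicate 1 or 3 and 7 without the low-count filter.

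Values of abundant adaptors differed with the group they were compared with. Flna, which links integrin tails to actin, had 0.73 ± 0.04 against Label_Input but 0.16 ± 0.04 against NonLabel_Enrich, both called. Tln1 (talin), which binds and activates beta chains, had 0.71 ± 0.05 against Label_Input (edgeR adjusted p = 6.40e-20) and 0.03 ± 0.05 against NonLabel_Enrich (edgeR adjusted p = 0.708). Actn4, also an actin linker, was at 0.26 ± 0.05 against Label_Input, where it was called higher, and at -0.13 ± 0.04 against NonLabel_Enrich, where it was called lower. In NonLabel_Enrich against Label_Input 14 of the 30 adaptors were higher and 2 lower (median 0.22), Tln1 at 0.68 and Flna at 0.58 among them, while 14.8% of all tested genes were called higher and 14.7% lower (median -0.02). For membrane partners that comparison gave 4 higher and 5 lower (median -0.01), and for ligands 17 higher and 2 lower (median 0.41).

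Among the ligands, Col6a3, a chain of microfibrillar collagen, rose by 1.18 ± 0.04 against Label_Input and 0.49 ± 0.04 against NonLabel_Enrich. Col3a1, a fibrillar collagen, rose by 1.03 and 0.71, and Col6a1 by 1.06 and 0.64. The exception among the most abundant was Ccn1, a matrix-bound integrin ligand encoded by an immediate early gene, which fell by 0.65 against Label_Input and by 0.95 against NonLabel_Enrich. Of the membrane partners, the endocytic receptor Lrp1 rose by 0.96 ± 0.04 against Label_Input and by 0.19 ± 0.04 against NonLabel_Enrich. The hyaluronan receptor Cd44 rose by 0.21 and 0.28, the tetraspanin Cd63 by 0.36 and 0.42, and basigin (Bsg) by 0.22 and 0.54, in the same order.

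**Figure D4:**
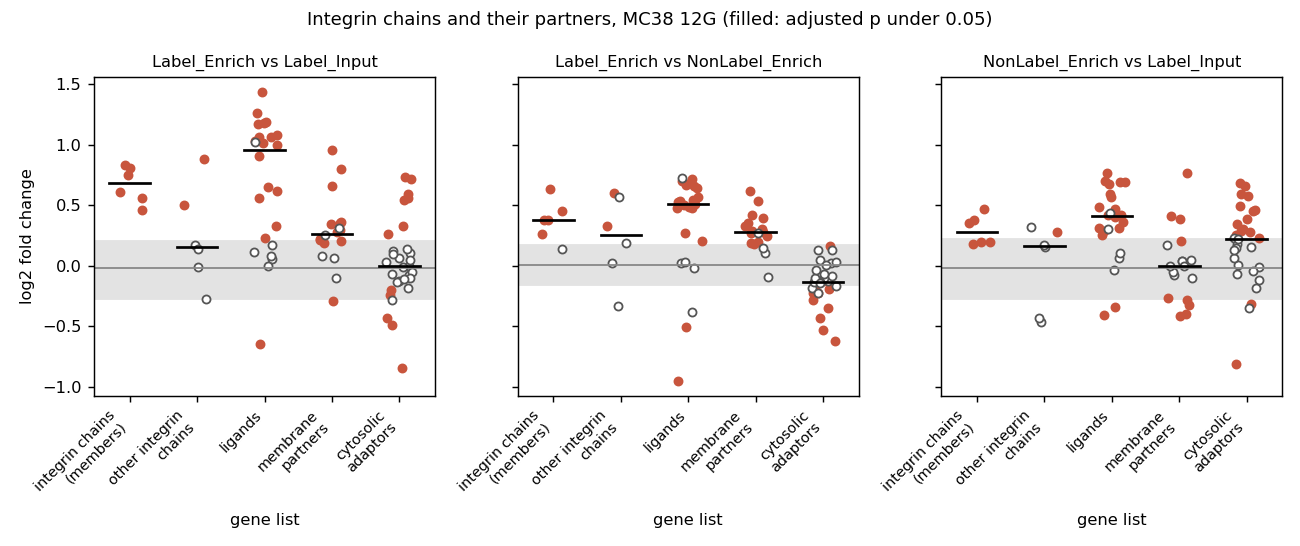
Log2 fold change of each tested gene in 5 lists for the 3 comparisons in MC38 12G, with filled points for an edgeR adjusted p under 0.05, a black bar at the list's median, and the grey band and line at the quartiles and median of all 11676 tested genes. Against NonLabel_Enrich 5 of the 6 integrin chains lie above the band and Itga6 (0.14) lies in it, while the adaptors' median is -0.13.

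Exon length moved with the fold changes across genes, and its value was taken out through a smooth trend. At the members' lengths of 3553 to 10744 exonic bases, the trend in Label_Enrich against Label_Input ran from -0.03 for Itgb5 to 0.09 for Itgav, and against NonLabel_Enrich it was -0.01 for all 6. After its removal the 6 calls against Label_Input and the 5 against NonLabel_Enrich held. In NonLabel_Enrich against Label_Input the trend ran from -0.02 for Itgb5 to 0.10 for Itgav, and its removal left 4 of the 6 calls. Itgav then stood at 0.08 and Itga5 at 0.15 on the log2 scale, and neither passed.

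The mRNAs whose levels ran most like Itgb1 over the 9 MC38 12G libraries, among the 2203 others that averaged 20 CPM or more, were P4hb (Pearson r = 0.994), Col3a1 (0.993), Hspa5 (0.992), Mfge8 (0.990) and Pdia6 (0.990). P4hb and Pdia6 encode ER disulfide isomerases, Hspa5 the ER chaperone BiP, and Mfge8 a secreted protein that binds integrins of the Itgav chain. The integrin chain Itgb7 stood at 0.985, and the value of Itgb4 is not given. Of the tested members, Itgav stood at 0.956, Itga5 and Itga3 at 0.947 each and Itgb5 at 0.937. Itga6, which averaged less than 20 CPM, stood at 0.806. The points are libraries of 3 groups and share their scaling factors, so these values describe the group differences again.

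In HEK293T 3G, ITGB1 was higher in captured RNA of labelled cells than in both other groups. Its Label_Enrich libraries had 347, 323 and 311 CPM, its Label_Input libraries 67.7, 82.6 and 62.2 CPM and its NonLabel_Enrich libraries 108, 103 and 111 CPM. The 3 groups did not overlap. Nothing is read from this, since the share of all tested features for which it held is not given for this set. Counts were few, 24 to 53 reads in Label_Input and 179 to 393 in Label_Enrich. The log2 fold change was 2.18 ± 0.14 against Label_Input, a 4.55-fold difference (SE, n = 3 a group, edgeR adjusted p = 7.34e-22), where 17.1% of 9177 tested features were called higher, 12.0% lower and 29.0% in either direction, and 54 had a fold change at least as large, ITGB1 included. Against NonLabel_Enrich it was 1.61 ± 0.13 (edgeR adjusted p = 1.01e-17), with 15.9% of features called higher, 7.33% lower and 23.2% in either direction.

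NonLabel_Enrich exceeded Label_Input for ITGB1 by 0.58 ± 0.17 (edgeR adjusted p = 0.0223), where 2.96% of features were called higher and 4.03% lower. This call was lost with the DESeq2 test and when 1 of 4 libraries was left out: Label_Input replicate 1 or 3, or NonLabel_Enrich replicate 1 or 3, with values from 0.52 to 0.73 over all 9 such fits and adjusted p up to 0.0954. In MC38 12G Itgb1 had 0.83, 0.63 and 0.20 in the same 3 comparisons. The cell lines were fitted on separate tables with different features and depths, and the difference between them was not tested.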

How the data were processed

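Counts of reads per Ensembl gene, whole numbers, were deposited as 1 table for each set of 9 libraries. The submitters' processing notes list HISAT2 2.1.0, cutadapt 1.18, DESeq2 1.16.1 and HTSeq 0.7.2, and the builds GRCh38 and GRCm39. Strand, treatment of multiple matches and annotation release were not given in the sources used here, so counts where genes overlap are uncertain. GENCODE M21 (GRCm38) supplied names for 52073 of 56691 mouse features, lengths and coding starts; no coordinates are given. Groups came from sample titles.

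Each set was fitted once over its 9 libraries with edgeR 4.0.16 (R 4.3.3), using trimmed mean of M values scaling, filterByExpr with default settings, a coefficient for each group, and the two-sided quasi-likelihood F test. P-values were adjusted by Benjamini-Hochberg over all tested genes, and calls made at 0.05. SE was taken as the size of the log2 fold change over the square root of F. The fit was also run on simulated counts with few changed genes, balanced in direction, so that run does not test the scaling in these data. Alternatives were DESeq2 1.42.0 size factors and its test, no filter, fits of 2 groups, each library left out, a replicate block, the 2 most abundant features left out, removal of the length trend and the 3G table. Floors cover counting error only. Named genes are the 8 members, other integrin chains past the filter, the 4 most abundant tested genes of each list and the 5 genes most like Itgb1; others are said to be outside this rule, and a gene it names is not reported here. Members and lists were chosen with earlier results of these data known.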

Additional observations from a re-analysis of the deposited data

How the results depend on the processing

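In MC38 12G, the 6 calls against Label_Input and the 5 against NonLabel_Enrich kept their direction and their side of the threshold under all 17 alternatives; the 6 calls of NonLabel_Enrich against Label_Input came to 4 to 6. Itgb1 ran from 0.82 to 0.94 against Label_Input and from 0.62 to 0.67 against NonLabel_Enrich. Adaptors called against NonLabel_Enrich, 11, were 7 without the low-count filter and 7 to 13 with 1 library left out. Other chains called in NonLabel_Enrich against Label_Input, 1, were 3 without the filter, and 1 to 2 with 1 library left out. Itgb4 was newly called in that comparison without the filter and without Label_Input replicate 1. ITGB1 in that comparison was 0.59 with the DESeq2 test (adjusted p = 0.0629) and 0.52 to 0.73 with 1 library left out. Over all MC38 genes, the DESeq2 test called 1512 against 2342 in Label_Enrich against NonLabel_Enrich. For HEK293T, NonLabel_Enrich against Label_Input gave 642 calls, 375 with the DESeq2 test and 395 without Label_Input replicate 2. The causes were not tested.

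Without the filter, MC38 values against Label_Input shifted by a median of 0.10, and calls split 2228 higher and 1177 lower, beside 1654 and 1700. Against NonLabel_Enrich they split 1297 and 760, beside 1218 and 1124, and for NonLabel_Enrich against Label_Input 2047 and 1237, beside 1727 and 1713. In HEK293T 1651 and 705 stood beside 1567 and 1097 against Label_Input, and 322 and 271 beside 272 and 370 for NonLabel_Enrich against Label_Input. The tested members' log2 fold changes in MC38 12G stayed above 0.

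Libraries share replicate numbers. For same-numbered libraries, r of their deviations was -0.01 to 0.02 in MC38 12G and -0.02 to 0.05 in HEK293T. For libraries with different numbers it was -0.02 to 0.01 and -0.04 to 0.03. In MC38 12G 6 of 9 libraries, and in HEK293T 4 of 9, correlated best with their own number. Whether the numbers mark pairs was not tested. With the replicate block, 3346 MC38 genes were called against Label_Input, with the same 6, 5 and 6 members in the 3 comparisons, and ITGB1 stood at 2.19, 1.60 and 0.59. Lengths of the longest transcript moved levels per kilobase beyond 1 SD for 7 of 8 chains. Low counts limit Itga7, Itgb3, the other chains under 2 CPM and ITGB1.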

Other observations

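Some integrin partners outside the naming rule, chosen after their values were seen, had opposite signs in the comparisons on the 2 sides of NonLabel_Enrich. Cd9, a tetraspanin that associates with integrins, rose by 0.62 in Label_Enrich against NonLabel_Enrich and fell by 0.41 in NonLabel_Enrich against Label_Input, on the log2 scale, and both passed the edgeR test. Cd81, another tetraspanin, rose by 0.33 and fell by 0.26. Spp1 (osteopontin), a secreted ligand of Itgav receptors, rose by 0.52 and fell by 0.41, and Vcam1, a ligand of Itga4 receptors, rose by 0.67 and fell by 0.34. Against Label_Input, Label_Enrich had 0.20 for Cd9 and 0.33 for Vcam1, which passed, and 0.06 for Cd81 and 0.11 for Spp1, which did not. The 2 comparisons share the NonLabel_Enrich libraries, so a value of that group moves them in opposite directions. Pxn (paxillin) and Bcar1, cytosolic adaptors of focal adhesions, moved the other way: they were lower in Label_Enrich than in NonLabel_Enrich, at -0.44 and -0.53, and higher in NonLabel_Enrich than in Label_Input, at 0.30 and 0.45, and all 4 values passed.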
